A study of Triticum aestivum with 24 samples.

Results

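FT1, also known as VRN3, is the wheat gene for florigen, the signal that leaves send to the shoot tip to start flowering. Bread wheat is hexaploid and carries a copy of FT1, called a homoeolog, on each of its A, B and D subgenomes. The homoeologs were TraesCS7A02G115400 (here FT1-A), TraesCS7B02G013100 (FT1-B) and TraesCS7D02G111600 (FT1-D), which are 3 of the 105200 genes measured. They were taken by identifier across all 8 groups, and the letters in the identifiers place them on chromosomes 7A, 7B and 7D. All 3 passed the filter on low values.

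The plants were winter bread wheat of the cultivar Alana, and poly-A RNA was taken from the main tiller, from leaves 3 and 4 together, at the start of flowering (growth stage 61). The control group had none of the treatments. The drought group was held at a soil water content of 25 ± 5%, the temperature group was heated to up to 31 °C, and the CO2 group received 700 ppm. The other groups combined these as temperature+drought, CO2+drought, CO2+temperature and CO2+temperature+drought, with the same levels. Each group had 3 biological replicates, which makes 24 libraries. Control conditions in figures, the hour of harvest, the age of the plants and whether a replicate was 1 plant or a pool were not given in the sources used here. The labels call the replicates biological and say no more of their growth, so p-values measure the spread between these samples. In the main fit of the linear model used below (limma), that spread is pooled over all 24 libraries. Differences in how the groups were grown, other than the treatments, are not covered by these p-values.

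FT1 encodes a small protein of the phosphatidylethanolamine-binding family. It is made in the phloem companion cells of leaves, moves through the phloem to the shoot apex, and there joins bZIP partners to switch on VRN1, a MADS-box gene that commits the apex to flowering. In winter wheat, the repressor VRN2 holds FT1 down until a cold season has passed, after which long days raise it through PPD1 and the phytochromes. In whole leaves, fewer companion cells and less FT1 RNA per companion cell cannot be told apart.

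Levels are FPKM, fragments per kilobase of transcript, with a scaling between libraries that was not given. FPKM allow genes of different length to be compared. No counts came with them, so depth is unknown and no counting interval was computed. The 6 temperature+drought and CO2+drought libraries stood apart in scale. Their median-ratio factors (a library's typical ratio to the mean library) were 0.8718 to 0.8924, against 1.05 to 1.059 in the other 18. The gap of 0.252 on the log2 scale falls wholly between groups and cannot be told apart from them, so tested changes that cross this gap are given as deposited and, where the values differ, after division by the factors, called rescaled. Levels are as deposited unless stated. The median change over all tested genes against control was -0.185 in temperature+drought and -0.18 in CO2+drought on the log2 scale as deposited.

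FT1-A and FT1-B were abundant in control leaves and FT1-D was low. FT1-A stood at 52.8, 53.9 and 36.6 FPKM in the 3 control libraries, a mean of 47.8 ± 9.67 FPKM (SD, n = 3). FT1-B stood at 59.2, 69.1 and 52.8 FPKM, a mean of 60.3 ± 8.22. FT1-D stood at 2.73, 2.54 and 1.42 FPKM, a mean of 2.23 ± 0.712. The means of FT1-A and FT1-B thus lay above those of 95.4% and 96.6% of the tested genes, and that of FT1-D above 28.2%. The rule by which fragments were divided between near-identical homoeologs was not given, so the split between copies is less certain than their sum.

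The sum of the 3 homoeologs was highest under drought alone (135 ± 1.58 FPKM, SD, n = 3), followed by control (110 ± 17.8) and CO2 (105 ± 11.7). CO2+temperature had 85.0 ± 14.8 FPKM, CO2+drought 55.2 ± 9.86 and temperature 54.1 ± 18.7. The lowest sums were in CO2+temperature+drought (35.5 ± 19.2 FPKM) and temperature+drought (18.4 ± 8.5 FPKM), the latter 16.7% of the control sum. On rescaled values the temperature+drought sum was 20.0% and the CO2+drought sum 59.1% of control, against 50.0% for CO2+drought as deposited.

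FT1-A was highest under drought alone, with 63.8, 64.3 and 67.6 FPKM, and these values exceeded those of every other group. CO2 followed with 63.3, 56.5 and 51.2 FPKM, then CO2+temperature with 42.1, 58.1 and 47.7 FPKM. The temperature libraries held 41.8, 33.4 and 17.0 FPKM and those of CO2+drought 34.7, 22.7 and 29.1 FPKM. From CO2 downward, each group overlapped the next one in the order of means. CO2+temperature+drought was uneven, with 34.3, 25.6 and 7.18 FPKM in replicates 1 to 3. Temperature+drought was lowest at 4.86, 15.9 and 10 FPKM, below every control library.

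FT1-B gave a steadier order, with smaller spread in most groups. Drought alone (67.0, 68.5 and 65.4 FPKM) overlapped control, and both lay above CO2 (51.9, 39.4 and 44.9 FPKM). CO2 lay above CO2+temperature (27.8, 39.4 and 33.5 FPKM), with a highest value of the latter just under the lowest of the former. Below these, CO2+drought held 28.3, 22 and 25.2 FPKM and temperature 26.0, 24.6 and 15.7 FPKM. CO2+temperature+drought held 16.6, 12.3 and 7.20 FPKM, and temperature+drought 4.27, 8.31 and 6.49 FPKM. Neighbours from CO2+temperature downward overlapped in range.

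FT1-D stayed between 0.138 and 3.95 FPKM in all 24 libraries. Its group means ran from 3.10 ± 0.809 FPKM (SD, n = 3) under drought to 1.04 ± 0.784 in CO2+temperature+drought. Every group overlapped its neighbour in the order of means. In temperature+drought, where FT1-A and FT1-B were lowest, FT1-D stood at 0.836, 2.79 and 1.75 FPKM, within the range of the other groups. Over the 24 libraries, log2 levels of FT1-A and FT1-B correlated at 0.935, those of FT1-A and FT1-D at 0.693, and those of FT1-B and FT1-D at 0.602. These correlations describe libraries that share treatments and scaling.

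**Figure D1:**
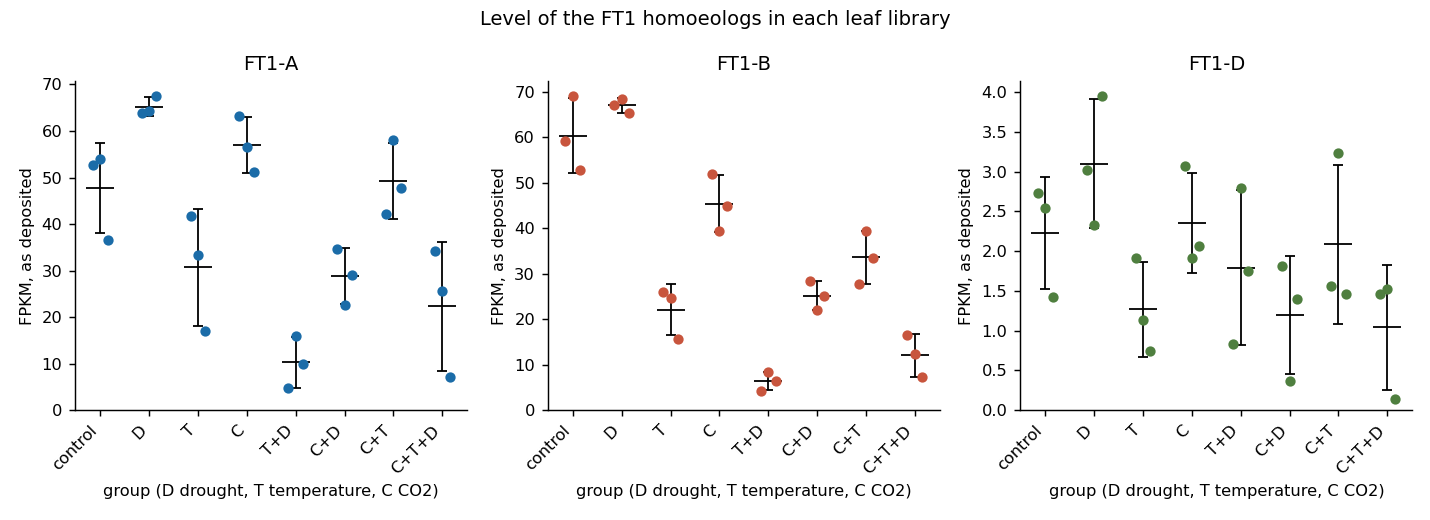
FPKM as deposited (vertical axis, from 0, a separate scale for each homoeolog) of FT1-A, FT1-B and FT1-D in each of the 8 groups. Points are the 3 libraries, long dashes the group mean and bars the SD. FT1-A and FT1-B are lowest in temperature+drought (T+D), at means of 10.2 and 6.35 FPKM, while FT1-D stays at 1.79 FPKM there.

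Treated groups were first compared with control, with all 7 comparisons sharing the same 3 control libraries. Changes are differences of log2(FPKM + 1), which understate the change of low genes such as FT1-D. A gene was called at a limma adjusted p under 0.05, with p-values adjusted over all 45359 tested genes. Here and below, the share of all tested genes whose groups did not overlap was not computed. Lack of overlap is therefore description only and does not set a homoeolog apart from other genes.

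No homoeolog was called under drought alone, at an adjusted or an unadjusted p under 0.05, in a comparison where 1.08% of tested genes were called higher. The drought means were 136%, 111% and 139% of control for FT1-A, FT1-B and FT1-D. The log2 changes were 0.46 (SE 0.42), 0.16 (SE 0.24) and 0.35 (SE 0.33). The FT1-A drought libraries all lay above the control libraries, although the model's SE was nearly as large as the difference.

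Elevated temperature alone lowered FT1-B while the other homoeologs missed the threshold. FT1-B fell to 36.6% of control, a log2 change of -1.43 (SE 0.24, adjusted p = 0.00028), and its libraries did not overlap the controls. It was the 1 homoeolog of 3 called, against 7.55% of tested genes called lower. FT1-A was at 64.3% of control (log2 change -0.69, SE 0.42, adjusted p = 0.30) and FT1-D at 56.9% (-0.52, SE 0.33, adjusted p = 0.33). The ranges of both overlapped control.

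Elevated CO2 alone gave no called homoeolog at an adjusted or an unadjusted p under 0.05, where 19.9% of tested genes were called higher. FT1-A stood at 119%, FT1-B at 75.2% and FT1-D at 105% of control. The FT1-B libraries lay below the controls without overlap, with a log2 change of -0.40 (SE 0.24, adjusted p = 0.20). When only the 6 libraries of these groups were fitted, this FT1-B difference was called (adjusted p = 0.020).

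Temperature combined with drought gave the largest falls of FT1-A and FT1-B among the 7 groups. FT1-B fell to 10.5% of control, a 9.50-fold lower mean (log2 change -3.09, SE 0.24, adjusted p = 3.4e-09). FT1-A fell to 21.4% of control (log2 change -2.23, SE 0.42, adjusted p = 0.00019). FT1-D was at 80.3% of control (log2 change -0.25, SE 0.33, adjusted p = 0.55), and at 96.3% on rescaled values (log2 change -0.08). The 2 called homoeologs stand against 37.8% of tested genes called lower as deposited and 20.7% rescaled. On rescaled values the falls were -2.86 for FT1-B (adjusted p = 1.1e-08) and -1.99 for FT1-A (adjusted p = 0.00063).

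CO2 combined with drought lowered FT1-B to 41.7% of control (log2 change -1.23, SE 0.24, adjusted p = 0.00030; rescaled -0.995, adjusted p = 0.0022). FT1-A was at 60.4% of control and, as deposited, did not overlap it, but was not called (log2 change -0.71, SE 0.42, adjusted p = 0.16). FT1-D was at 53.5% (log2 change -0.60, SE 0.33, adjusted p = 0.14). Here 36.7% of tested genes were called lower as deposited and 19.8% rescaled. When only these 6 libraries were fitted, FT1-A was called too (adjusted p = 0.017). On rescaled values FT1-A was at 71.3% of control (log2 change -0.48, adjusted p = 0.38) and FT1-D at 63.2% (-0.46, adjusted p = 0.28). The rescaled FT1-A ranges overlapped, with 39.1 FPKM in CO2+drought replicate 1 and 34.8 FPKM in control replicate 3.

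CO2 combined with temperature lowered FT1-B, the 1 homoeolog called, to 55.6% of control (log2 change -0.83, SE 0.24, adjusted p = 0.012), where 13.7% of tested genes were called lower. FT1-A stood at 103% and FT1-D at 93.5% of control, with ranges that overlapped it. The FT1-B call was lost without control replicate 2 (adjusted p = 0.054) or CO2+temperature replicate 1 (adjusted p = 0.060).

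All 3 treatments together lowered FT1-B to 20.0% of control (log2 change -2.29, SE 0.24, adjusted p = 4.0e-07) and FT1-A to 46.8% (log2 change -1.29, SE 0.42, adjusted p = 0.024). FT1-D was at 46.7% and was not called (log2 change -0.72, SE 0.33, adjusted p = 0.11). Of tested genes, 15.1% were called lower. The FT1-A call was lost without control replicate 1 or 2 (adjusted p = 0.074 and 0.077). It was also lost when only these 6 libraries were fitted (adjusted p = 0.12) and without CO2+temperature+drought replicate 3 (log2 change -0.65, adjusted p = 0.16).

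**Figure D2:**
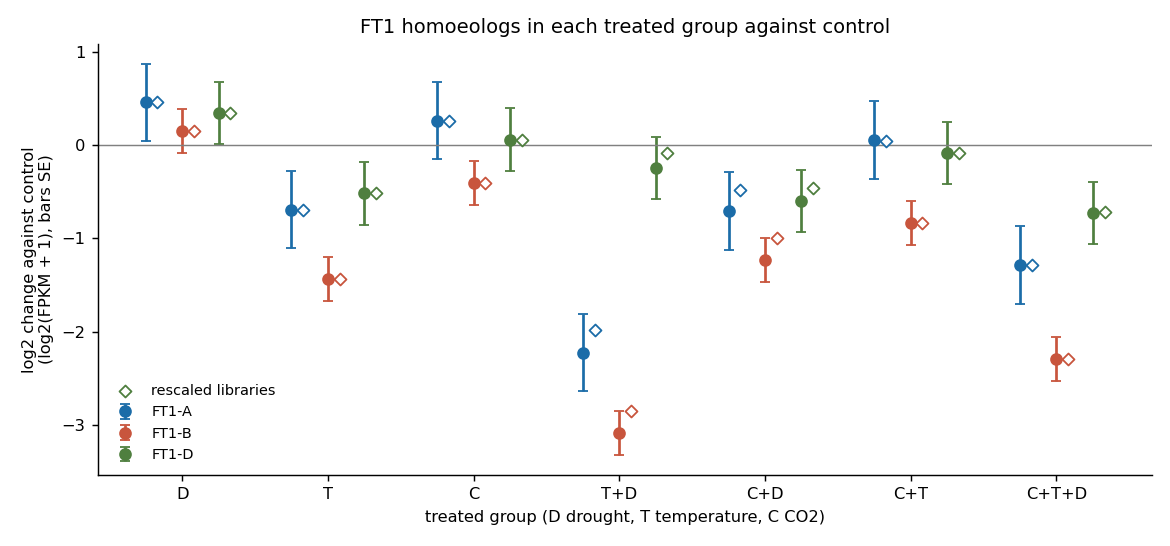
Log2 change of each FT1 homoeolog (vertical axis, difference of log2(FPKM + 1) from control) in the 7 treated groups. Filled points with SE bars are values as deposited and open diamonds are rescaled values. FT1-B lies lowest in temperature+drought, at -3.09 as deposited and -2.86 rescaled, and FT1-D lies between -0.72 and 0.35 in all 7 groups.

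Each treatment was then followed through the 4 backgrounds to which it was added. Drought lowered FT1-A and FT1-B in heated plants. Added to temperature, it took FT1-A from 30.7 ± 12.6 to 10.2 ± 5.50 FPKM (log2 change -1.54, SE 0.42, adjusted p = 0.0053) and FT1-B from 22.1 ± 5.63 to 6.35 ± 2.03 FPKM (-1.66, SE 0.24, adjusted p = 1.7e-05). In this comparison 36.4% of tested genes were called lower as deposited and 16.4% rescaled, and both homoeologs were called on either scale (rescaled -1.29 for FT1-A and -1.42 for FT1-B). FT1-D stood at 141% of its temperature level without being called (log2 change 0.27, SE 0.33, adjusted p = 0.52; rescaled 0.43, adjusted p = 0.34).

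Drought added to CO2+temperature, both groups of the larger set of libraries, gave falls of a similar size. FT1-B fell from 33.6 ± 5.83 to 12.0 ± 4.72 FPKM (log2 change -1.46, SE 0.24, adjusted p = 0.00016). FT1-A fell from 49.3 ± 8.12 to 22.4 ± 13.8 FPKM (-1.34, SE 0.42, adjusted p = 0.025), where 12.2% of tested genes were called lower. The FT1-A call was lost without CO2+temperature replicate 2 (adjusted p = 0.088) or 3 (0.058) and in a fit to only the 6 libraries (0.13). Without CO2+temperature+drought replicate 3 the FT1-A change was -0.70 (adjusted p = 0.16).

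Added to CO2, drought lowered FT1-B from 45.4 ± 6.22 to 25.2 ± 3.16 FPKM as deposited (log2 change -0.83, SE 0.24, adjusted p = 0.010). This call was lost on rescaled values (-0.59, adjusted p = 0.086). FT1-A and FT1-D were at 50.6% and 50.7% of their CO2 level, neither overlapped it as deposited, and neither was called (adjusted p = 0.072 and 0.13). The share of tested genes called lower was 32.2% as deposited and 10.5% rescaled. FT1-A was called in a fit to only the 6 libraries (adjusted p = 0.0025) and without temperature+drought replicate 1, CO2+temperature+drought replicate 1 or CO2+temperature+drought replicate 3 (adjusted p = 0.0485, 0.0488 and 0.0166). On rescaled values the changes were smaller, at -0.73 for FT1-A (adjusted p = 0.23) and -0.52 for FT1-D (adjusted p = 0.29). The rescaled FT1-D ranges overlapped, with 2.04 FPKM in CO2+drought replicate 1 and 1.82 FPKM in CO2 replicate 2.

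Elevated temperature made its largest difference to FT1-A and FT1-B in plants under drought at ambient CO2. Added to drought, it took FT1-B to 9.49% of its drought level (log2 change -3.25, SE 0.24, adjusted p = 2.2e-09; rescaled -3.02) and FT1-A to 15.7% (-2.69, SE 0.42, adjusted p = 3.0e-05; rescaled -2.45). FT1-D was at 57.8% (log2 change -0.60, SE 0.33, adjusted p = 0.14; rescaled -0.43, adjusted p = 0.32). The background of genes called lower was 37.0% as deposited and 20.7% rescaled.

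Added to CO2, temperature gave no called homoeolog at an adjusted or an unadjusted p under 0.05, where 13.6% of tested genes were called lower. FT1-A, FT1-B and FT1-D were at 86.6%, 73.9% and 88.7% of the CO2 level. The FT1-B ranges did not overlap (log2 change -0.43, SE 0.24, adjusted p = 0.20), and fitting only those 6 libraries called it (adjusted p = 0.024). Added to CO2+drought, temperature lowered FT1-B to 47.9% (log2 change -1.07, SE 0.24, adjusted p = 0.0011; rescaled -1.30). FT1-A was at 77.5% there (adjusted p = 0.26) and FT1-D at 87.4% (adjusted p = 0.77), with overlapping ranges, against 14.2% of genes called lower as deposited and 22.9% rescaled. The FT1-A change was -0.58 as deposited and -0.81 rescaled (adjusted p = 0.12), and that of FT1-D -0.13 and -0.25 (rescaled adjusted p = 0.58).

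In drought plants CO2 gave a called fall of FT1-B on either scale, and of FT1-A and FT1-D as deposited only. In temperature+drought plants CO2 gave a called rise of FT1-B, also as deposited only. Added to drought alone, it lowered all 3 homoeologs as deposited: FT1-A to 44.2% (log2 change -1.17, SE 0.42, adjusted p = 0.026), FT1-B to 37.6% (-1.39, SE 0.24, adjusted p = 9.7e-05) and FT1-D to 38.5% of the drought level (-0.95, SE 0.33, adjusted p = 0.024). No homoeolog overlapped between the groups, and the share of all tested genes without overlap was not computed. On rescaled values FT1-B alone was called (-1.15, adjusted p = 0.00068), with adjusted p = 0.080 for FT1-A and 0.061 for FT1-D. The background of genes called lower was 36.5% as deposited and 19.8% rescaled. The FT1-A call was also lost without any single drought library or CO2+drought replicate 2 or 3 (adjusted p = 0.053 to 0.087). That of FT1-D was lost without drought replicate 1 or 3 (0.052 and 0.092), without CO2+drought replicate 2 (log2 change -0.64, adjusted p = 0.14) and with a pseudocount of 0.1 (0.053).

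Added to temperature, CO2 left FT1-A at 161%, FT1-B at 152% and FT1-D at 164% of the temperature level, and no homoeolog was called. FT1-A (log2 change 0.74, SE 0.42, adjusted p = 0.28) and FT1-B (0.60, SE 0.24, adjusted p = 0.11) did not overlap between the groups. FT1-B was the 1 homoeolog with an unadjusted p under 0.05, and 7.19% of tested genes were called higher. Without CO2+temperature+drought replicate 3, which enters only through the shared spread, the FT1-B difference was called (adjusted p = 0.045).

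Added to temperature+drought, CO2 left FT1-B at 190% of its level (6.35 ± 2.03 against 12.0 ± 4.72 FPKM), which was called as deposited (log2 change 0.80, SE 0.24, adjusted p = 0.011) although the ranges overlapped. The call was lost on rescaled values (0.56, adjusted p = 0.075) and in a fit to only the 6 libraries (adjusted p = 0.12). It was also lost without replicate 1 of temperature+drought (adjusted p = 0.063) or of CO2+temperature+drought (0.073). FT1-A was at 218% (log2 change 0.94, SE 0.42, adjusted p = 0.071) and was called without CO2+temperature+drought replicate 3 (1.58, adjusted p = 0.0014) or temperature+drought replicate 2 (1.30, adjusted p = 0.026). On rescaled values its change was 0.70 (adjusted p = 0.21). FT1-D was at 58.2% (log2 change -0.48, SE 0.33, adjusted p = 0.25; rescaled -0.63, adjusted p = 0.16). Of tested genes, 35.1% were called higher as deposited and 14.4% rescaled.

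Inside the smaller set of 6 libraries, where no difference of scale arose, temperature+drought lay below CO2+drought. This comparison was added after the data were seen. FT1-B was at 25.3% (log2 change -1.86, SE 0.24, adjusted p = 5.4e-06) and FT1-A at 35.5% (-1.52, SE 0.42, adjusted p = 0.0080), without overlap. FT1-D was at 150% (log2 change 0.35, SE 0.33, adjusted p = 0.46), and 17.1% of tested genes were called lower. The FT1-A call was lost without temperature+drought replicate 1 (-1.11, adjusted p = 0.053).

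**Figure D3:**
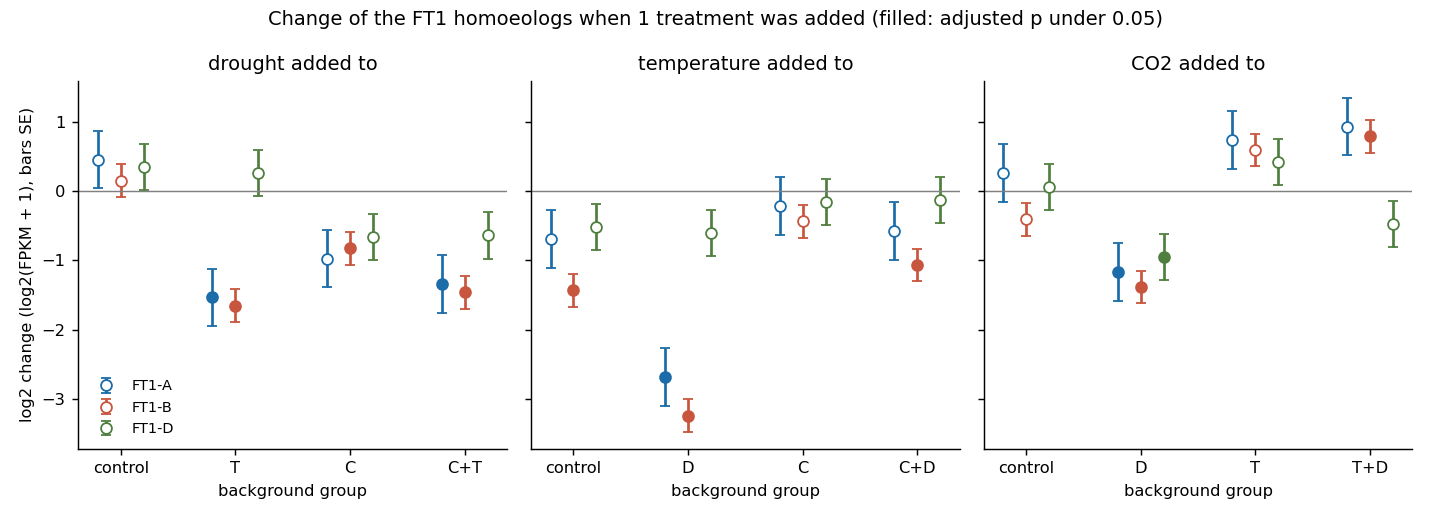
Log2 change of each FT1 homoeolog when drought (left), temperature (middle) or CO2 (right) was added to each of 4 background groups, on values as deposited. Bars are SE and filled points have a limma adjusted p under 0.05. Drought gave positive, uncalled values in control plants and called falls of FT1-A and FT1-B in temperature and CO2+temperature plants. CO2 gave falls in drought plants and positive values of FT1-A and FT1-B in heated plants.

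The factorial terms averaged each effect over the other treatments. Elevated temperature changed FT1-B by -1.54 (SE 0.12, adjusted p = 5.0e-09) and FT1-A by -1.04 (SE 0.21, adjusted p = 0.00051) on the log2 scale, where 21.6% of tested genes were called lower. FT1-D averaged -0.35 (SE 0.17, adjusted p = 0.10), a difference that was called without CO2+drought replicate 2 (-0.42, adjusted p = 0.043). Drought changed FT1-B by -0.95 (SE 0.12, adjusted p = 4.1e-06; rescaled -0.83) and FT1-A by -0.85 (SE 0.21, adjusted p = 0.0027; rescaled -0.73), against 36.3% of tested genes as deposited and 15.4% rescaled. FT1-D averaged -0.17 (SE 0.17, adjusted p = 0.41; rescaled -0.09, adjusted p = 0.71). The average effect of CO2 was called for no homoeolog at an adjusted or an unadjusted p under 0.05, with 0.20 (SE 0.21) for FT1-A, -0.10 (SE 0.12) for FT1-B and -0.23 (SE 0.17) for FT1-D. There 18.8% of tested genes were called lower.

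The drought effect on FT1-B depended on temperature. Its drought by temperature interaction was -1.22 (SE 0.24, adjusted p = 0.0011; rescaled -1.23), where 9.95% of tested genes had a called negative interaction. Averaged over CO2 levels, drought thus lowered FT1-B more in heated than in unheated plants. Its drought changes were 0.16 unheated and -1.66 heated at ambient CO2. At elevated CO2 they were -0.83 and -1.46. The interaction was not tested at each CO2 level. FT1-A had a value of -1.18 (SE 0.42) that narrowly missed the threshold (adjusted p = 0.051). It passed with the replicate number as a block (adjusted p = 0.040). It also passed without temperature replicate 3, temperature+drought replicate 2 or CO2+temperature+drought replicate 1 or 2 (adjusted p = 0.016 to 0.044). FT1-D had an interaction of -0.030 (SE 0.33, adjusted p = 0.96).

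The temperature effect on FT1-A and FT1-B depended on CO2. The temperature by CO2 interaction was 1.59 for FT1-B (SE 0.24, adjusted p = 2.1e-05; rescaled 1.36, adjusted p = 0.00012) and 1.29 for FT1-A (SE 0.42, adjusted p = 0.014; rescaled 1.06, adjusted p = 0.045). Temperature thus lowered both less at elevated than at ambient CO2. FT1-D had 0.42 (SE 0.33, adjusted p = 0.30; rescaled 0.27, adjusted p = 0.54). Positive interactions were called in 37.8% of tested genes as deposited and in 20.3% rescaled.

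Within the 4 groups without drought, all of the larger set, the temperature by CO2 interaction was smaller. It was 1.002 for FT1-B (SE 0.34, adjusted p = 0.045) and 0.48 for FT1-A (SE 0.59, adjusted p = 0.63), where 6.75% of tested genes had a called positive value. FT1-D had 0.37 (SE 0.47, adjusted p = 0.65). This term was added after the data were seen, and the FT1-B call was lost with a pseudocount of 0.1 (adjusted p = 0.058), with no filter (0.075) and without any of 15 single libraries. Without these the value ran from 0.78 to 1.09.

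The drought by CO2 interaction was called for no homoeolog, with 9.11% of tested genes called negative. FT1-D, at -0.96 (SE 0.33, adjusted p = 0.061), was the 1 homoeolog with an unadjusted p under 0.05, and FT1-A and FT1-B had -0.62 and -0.39. FT1-D passed without replicate 1 of temperature, temperature+drought, CO2+drought or CO2+temperature+drought, or without CO2+temperature+drought replicate 2 (adjusted p = 0.028 to 0.049). The interaction of all 3 treatments was called for none either, where 31.5% of tested genes were called positive as deposited and 9.37% rescaled. Its values were 1.63 (SE 0.83, adjusted p = 0.13) for FT1-A and 1.18 (SE 0.48, adjusted p = 0.056) for FT1-B, the 1 homoeolog with an unadjusted p under 0.05. On rescaled values they shrank to 1.15 (adjusted p = 0.36) and 0.71 (adjusted p = 0.32). As deposited, without CO2+temperature+drought replicate 3 both passed, at 2.27 (adjusted p = 0.0088) and 1.48 (adjusted p = 0.0081). FT1-B also passed without temperature replicate 3, temperature+drought replicate 2 or CO2+temperature replicate 2 (adjusted p = 0.022, 0.028 and 0.046).

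The homoeologs did not keep the same proportions. In control leaves FT1-B was the leading copy, with 54.9% ± 3.26 of the summed FT1 level (SD, n = 3), against 43.1% ± 2.85 for FT1-A and 1.99% ± 0.412 for FT1-D. FT1-A led in every treated group except drought alone, where the shares were 48.2% ± 1.01 for FT1-A and 49.5% ± 1.55 for FT1-B. The FT1-A share was 40.3% to 46.0% in the control libraries and at least 47.6% in each of the 21 treated libraries. A share does not depend on the scale of a library, but it does depend on how fragments were divided between homoeologs.

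Heat lowered the FT1-B share and raised the FT1-A share. Averaged over the 4 backgrounds, temperature raised the FT1-A share by 7.54 percentage points and changed the FT1-B share by -9.58 percentage points (exact permutation test within backgrounds, two-sided, p = 0.00059 and 0.00030, both 0.0026 after Benjamini-Hochberg adjustment over 9 tests). The sign was the same in all 4 backgrounds for both. Shares of the 3 homoeologs add up to the whole, so these tests are not independent. In drought plants at ambient CO2, heat changed the FT1-B share by -13.13 points, while FT1-A gained 5.973 and FT1-D 7.154. The ratio of FT1-A to FT1-B was 0.997 to 2.08 in the 12 heated libraries, above 1 in 11 of them. It was 0.694 to 1.43 in the 12 unheated libraries, above 1 in 7 of them.

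CO2 raised the FT1-A share by 5.85 percentage points (exact permutation p = 0.0051, adjusted p = 0.015), with the same sign in all 4 backgrounds. The FT1-B share differed by -4.14 percentage points with CO2, which missed the threshold (exact permutation p = 0.069, adjusted p = 0.089). Its sign was not the same throughout. In temperature+drought plants CO2 changed the shares of FT1-A, FT1-B and FT1-D by 5.779, 1.125 and -6.904 points, so FT1-B did not lose share there. Without CO2+temperature+drought replicate 3 the difference was -5.65 points and passed (exact permutation, adjusted p = 0.0055). With drought the shares of FT1-A and FT1-B differed by 0.727 and -2.58 points (exact permutation, adjusted p = 0.69 and 0.24). Without CO2+temperature+drought replicate 3 the FT1-B difference was -4.09 points and passed (exact permutation, adjusted p = 0.027).

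FT1-D stood out in temperature+drought by its share, not by its level. There it made up 8.40%, 10.4% and 9.57% of the summed level, above all 21 other libraries, which ranged from 0.821% to 3.88%. Heat added to drought raised its mean share by 7.15 percentage points, against 0.168 to 0.498 in the other 3 backgrounds. The FT1-D level itself did not rise there. It was at 57.8% of the drought level (1.79 against 3.10 FPKM), while FT1-A and FT1-B were at 15.7% and 9.49%. The mean FT1-D share, averaged over backgrounds, was tested as well. This average for temperature was 2.03 points (exact permutation p = 0.020, adjusted p = 0.044). The call was lost on a log2 ratio scale (adjusted p = 0.063) and without any of 7 single libraries. Without these the difference was 1.87 to 2.003 points. For drought and CO2 the averages were 1.85 and -1.71 points (exact permutation, adjusted p = 0.073 and 0.079). The average for drought passed without replicate 2 of CO2+drought or 3 of CO2+temperature+drought (2.01 and 2.05 points, exact permutation, adjusted p = 0.045 and 0.024). Drought added to temperature gave 7.14 points, against -0.178 to 0.299 in the other 3 backgrounds. CO2 added to temperature+drought gave -6.90 points, against -0.248 to 0.230 in the other 3.

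**Figure D4:**
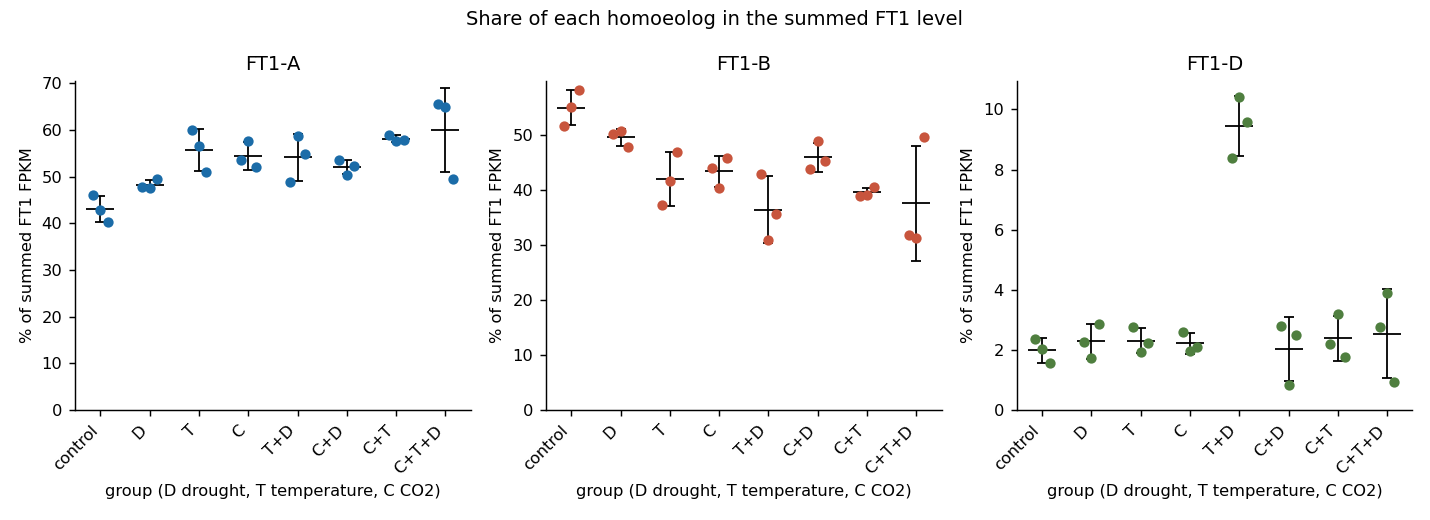
Share of FT1-A, FT1-B and FT1-D in the summed FPKM of the 3 homoeologs (vertical axis, percent, from 0, a separate scale for each) in the 8 groups. Points are libraries, long dashes the group mean and bars the SD. FT1-B leads in control at a mean of 54.9%, FT1-A leads at 58.1% in CO2+temperature (C+T), and FT1-D reaches 9.44% in temperature+drought (T+D).

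Genes with a pattern like that of FT1 were ranked by Pearson correlation with the log2 sum of the homoeologs, over 24 libraries and the 21479 genes whose mean reached 5 FPKM. TraesCS3A02G426700 (0.916) and TraesCS3D02G421600 (0.911) were the most alike. TraesCS3A02G426700 had 19.4 ± 2.74 FPKM (SD, n = 3) in control, 11.3 under temperature and 3.75 ± 1.20 in temperature+drought. Unlike the FT1 sum, its highest group was CO2, at 26.2 ± 0.810 FPKM. TraesCS1D02G177000 (-0.885) and TraesCS3A02G039200 (-0.858) were the most opposite, the former with 29.4 ± 2.95 FPKM in control and 97.8 ± 3.28 in temperature+drought. On rescaled values TraesCS3A02G426700 and TraesCS3D02G421600 kept ranks 1 and 2, but by Spearman correlation they ranked 47 and 54. At the opposite end TraesCS1D02G177000 ranked 3 on rescaled values and 9 by Spearman correlation, and TraesCS3A02G039200 ranked 2 and 1. The files name none of these genes, and the correlations come from libraries that share treatments.

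The neighbours of FT1, taken as the 5 identifiers on either side of each homoeolog, were often below the filter. Of 10 neighbours each, 3 were tested beside FT1-A, 4 beside FT1-B and 6 beside FT1-D. Averaged over backgrounds, temperature lowered 1, 1 and 3 of these and raised 1, 0 and 1, with log2 changes between -0.73 and 0.19. These 5 of 13 that fell stand against 21.6% of all tested genes. On the log2(FPKM + 1) scale, which understates the change of low genes, none changed by as much as FT1-A (-1.04) or FT1-B (-1.54). The neighbour at -0.73 had a mean of only 0.656 FPKM, so its fall cannot be ranked against theirs. In temperature+drought against control, 6 of the 13 fell and 1 rose as deposited, where 37.8% of all tested genes were called lower. On rescaled values 5 fell and 2 rose, where 20.7% were called lower. The largest falls on that scale were of TraesCS7A02G115300 (-1.65, rescaled -1.41), next to FT1-A, and TraesCS7B02G013200 (-1.78, rescaled -1.53), next to FT1-B. Both were chosen after their values were seen.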

How the data were processed

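Leaf poly-A RNA of 24 libraries was sequenced, and the authors deposited FPKM for 105200 genes, 1 column per library. The submitters' processing notes list HISAT2, Trim Galore 0.4.1, DESeq2 and Cuffdiff, without saying what each did. Build, annotation and scaling: not given in the sources used here. The value of 1 fragment, read from the most common ratio of low values (held by 11.0% to 13.7% of low genes), was 0.881 to 1.15 relative to control replicate 1, with absolute depth unknown.

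The 45359 genes that reached 1 FPKM in 3 or more libraries were fitted as log2(FPKM + 1) with limma 3.58.1 in R 4.3.3, 1 coefficient per group and a mean-variance trend. P-values were two-sided, with Benjamini-Hochberg adjustment contrast by contrast. There were 16 contrasts of pairs of groups and 7 factorial terms, plus 2 added after the data were seen. Homoeolog shares were tested by exact permutation of 160000 arrangements. Both tests were tried on simulated data. A main effect is the mean difference over 4 backgrounds.

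The members, contrasts and lists were chosen with earlier results of these data known. Genes were named as members, as the 2 most like and the 2 most opposite in pattern, and by position. The reference gene table, of assembly IWGSC CS RefSeq v2.1, paired 0 of the identifiers with a name, so the listed pathway and leaf marker symbols gave no values, no sequences are printed, and neither the name FT1 nor the tissue was checked by sequence or marker. Alternatives were a pseudocount of 0.1, no filter, rescaling, library quality weights, fits to only the libraries compared or to the 18 libraries of the larger set, a replicate block, and the omission of single libraries in turn.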

Additional observations from a re-analysis of the deposited data

Results flagged for a closer look

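For 4 results an interaction term passed its own test (limma, all 24 libraries), which means that a treatment's effect differed between the levels of another. FT1-B had a drought by temperature interaction of -1.224, where 9.95% of tested genes had a called negative value. Its FPKM means were 60.3 in control, 67.0 under drought, 22.1 under temperature and 6.35 under both. The temperature by CO2 interaction was 1.592 for FT1-B and 1.294 for FT1-A (rescaled 1.361 and 1.059). It was called positive in 37.8% of tested genes as deposited and 20.3% rescaled. Within the 4 groups without drought it was 1.002 for FT1-B, where 6.75% of tested genes were called positive. That term was added after the data were seen, and its FT1-B call was lost without any of 15 single libraries. Single outlying libraries were not tested within groups of 3.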

How the results depend on the processing

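No count behind an FPKM value is known, so the precision of FT1-D in particular, near 1 FPKM, rests on 3 libraries per group. Member by member, 1714 of 1800 leave-one-out values kept their direction and side of the threshold, 74 of 75 did with no filter, 72 with a pseudocount of 0.1, 70 rescaled, 48 with library quality weights, and 27 of 27 in the 18 libraries of the larger set. Counts of homoeologs called that changed are given here, and the causes were not tested. With quality weights they rose from 2 to 3 for temperature+drought against temperature, against drought and against CO2+drought, for the temperature average and for temperature by CO2, with FT1-D added each time. They were also 3 (temperature against control, CO2+drought against control, CO2+drought against CO2, CO2+temperature+drought against temperature+drought), 2 (CO2+temperature+drought against CO2+drought, CO2+temperature against temperature, CO2 average, drought by temperature, drought by CO2, all 3 treatments) and 1 (CO2 against control, CO2+temperature against CO2). Some of these counts mix directions. In temperature+drought, weighted FT1-D was higher than in temperature (0.3341) and CO2+drought (0.2055), where FT1-A and FT1-B were lower. In CO2+temperature+drought it was lower than in temperature+drought (-0.1189), where FT1-A and FT1-B were higher. The weighted CO2 average was 0.2265 for FT1-A and -0.1347 for FT1-B. Fitting only the libraries compared gave 2 for CO2+drought against control and against CO2. It gave 1 for CO2 against control, CO2+temperature against CO2, and CO2+temperature+drought against control and against CO2+temperature, and 0 for CO2+temperature+drought against temperature+drought. Rescaling gave 0 for CO2+drought against CO2 and for CO2+temperature+drought against temperature+drought, and 1 for CO2+drought against drought. A pseudocount of 0.1 and no filter each gave 0 for temperature by CO2 without drought. The same pseudocount gave 2 for CO2+drought against drought. With the replicate block 2 homoeologs were called for drought by temperature, and 74 of 75 member values did not change their call. Of 84 same-numbered pairs of libraries, 12 had deviations correlated over 0.1 (median 0.0117). Of 168 different-numbered pairs, 21 did (median -0.0017). With 3 libraries per group, this cannot decide whether the numbers pair the samples. Leaving out single libraries gave counts of 0 to 1 (CO2+temperature against control and against temperature, drought by CO2, temperature by CO2 without drought), 1 to 2 (CO2+temperature+drought against control and against CO2+temperature, CO2+drought against CO2, drought by temperature, temperature+drought against CO2+drought), 1 to 3 (CO2+drought against drought) 0 to 2 (CO2+temperature+drought against temperature+drought, all 3 treatments) and 2 to 3 (temperature average). It gave shares that differed by -4.09 to -1.79 points (FT1-B, drought), -5.65 to -3.34 (FT1-B, CO2), 1.69 to 2.05 (FT1-D, drought) and 1.87 to 2.23 (FT1-D, temperature, whose log2 ratio form was 0.691). Some uncalled log2 changes turned sign. For FT1-D these were CO2+temperature+drought against CO2+drought (0.0866 with weights), drought by temperature (0.214 with weights) and the term of all 3 treatments (-0.0917 with a pseudocount of 0.1 and -0.186 rescaled). Without single libraries FT1-D ran from -0.135 to 0.179 (CO2 against control), -0.499 to 0.0244 (temperature+drought against control), -0.339 to 0.0539 (CO2+temperature against control), -0.401 to 0.000291 (CO2+temperature against CO2), -0.435 to 0.2497 (CO2+temperature+drought against CO2+drought), -0.183 to 0.159 (drought by temperature) and -0.205 to 0.479 (all 3). FT1-A ran from -0.123 to 0.159 (CO2+temperature against control) and -0.996 to 0.0583 (CO2+temperature+drought against CO2+drought).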
